A study of Mus musculus with 4 samples.

Results

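Transcripts of inhibitory synapse scaffold and adhesion genes were examined in male mice on postnatal day 90, in the prelimbic cortex, which is part of the medial prefrontal cortex. The genes taken were Gphn, Nlgn2, Slitrk3, Iqsec3, Clptm1, Dmd, Dag1, Neo1 and Magi2. Every probe set that the platform annotation gives to a single symbol, that symbol being a member, was kept and read separately. This gave 22 probe sets for 8 of the 9 genes, out of 34945 probe sets with a single symbol for 18193 genes in all. Magi2, a membrane-associated scaffold of synapses, had no named probe set and was not analysed here. Dmd had 4 probe sets, Dag1 4, Neo1 5, Gphn 3, Nlgn2 2, Clptm1 2, and Slitrk3 and Iqsec3 1 each.

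The mice had been exposed to fluoxetine before birth (2 arrays) or were untreated controls (2 arrays). Fluoxetine is a selective serotonin reuptake inhibitor. RNA from punches was hybridised to Affymetrix 3' expression arrays, which read mainly the 3' end of a transcript. The submitters describe biological duplicates for each group and give no strain, dose, litter or pooling, so the p-values measure only the spread between these arrays.

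Fast inhibition in the cortex depends on GABA-A receptors held opposite GABA-releasing terminals. Gephyrin forms the lattice under the membrane that holds the receptors, and adhesion molecules such as neuroligin 2 and Slitrk3 join that lattice to the terminal across the cleft. At inhibitory contacts on the soma and proximal dendrites of pyramidal cells, a dystrophin and dystroglycan complex forms a further link to the extracellular side. The same complex also lies at the astrocyte endfeet on blood vessels and in muscle.

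The values are log2 intensities, so a difference of 1 is a 2-fold change in signal, and each difference is the fluoxetine mean minus the untreated mean with limma's moderated standard error (SE, n = 2 and 2). Levels of different probe sets are not comparable, because each has its own probes. The 4 arrays had medians of 6.44 and 6.47 with fluoxetine and 6.50 and 6.48 in untreated mice, and correlated pairwise at 0.996 to 0.997. The 15 probe sets of cortical projection neuron markers had a median of 9.74 and 9.63 with fluoxetine and 9.73 and 9.78 in untreated mice. Untreated replicate 2 stood apart in striatal markers, whose intensities summed on the log2 scale to 12.57 and 12.89 with fluoxetine, against 12.68 and 13.75 in untreated replicates 1 and 2. The striatal genes with the widest range were Syndig1l, at 4.86 and 5.10 with fluoxetine against 5.06 and 7.19 in untreated mice, and Gpr6, at 6.45 and 7.03 with fluoxetine against 6.76 and 8.64 in untreated mice. The poly-A control transcripts were higher on the fluoxetine arrays in all 24 of their probe sets, at a median difference of 0.24. The part of striatal tissue and of these controls in the results was not tested.

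As a group the members did not separate fluoxetine from untreated mice more often than other probe sets did. At an unadjusted p below 0.05 in limma, 2 of the 22 probe sets were higher with fluoxetine and 0 were lower, which is 9.09%, against 9.45% of all probe sets tested. Both of the 2 were Dmd. For higher calls alone the background was 6.4% and for lower calls 3.04%. After Benjamini-Hochberg adjustment over all 34945 probe sets, 0 members passed; the lowest adjusted p of a member was 0.510 (limma, Dmd). Among all probe sets 1 passed, or 0.00286%, a probe set of Homer1, named here after its values were seen. In 9 of the 22 members, or 40.9%, the 2 groups did not overlap, in 4 the fluoxetine pair lay above the untreated pair (19.9% of all probe sets) and in 5 below it (20% of all probe sets); over all probe sets the groups did not overlap in 39.9%. The difference exceeded the gap between duplicates in both groups for 7 members (31.8%), against 27.4% of all probe sets. The members' median difference was 0.04, against −0.01 over all probe sets, and the median size of the difference regardless of sign was 0.12 against 0.09. An exact two-sided permutation test of 2 arrays against 2 cannot give a p below 0.333, so no member could pass such a test.

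**Figure D1:**
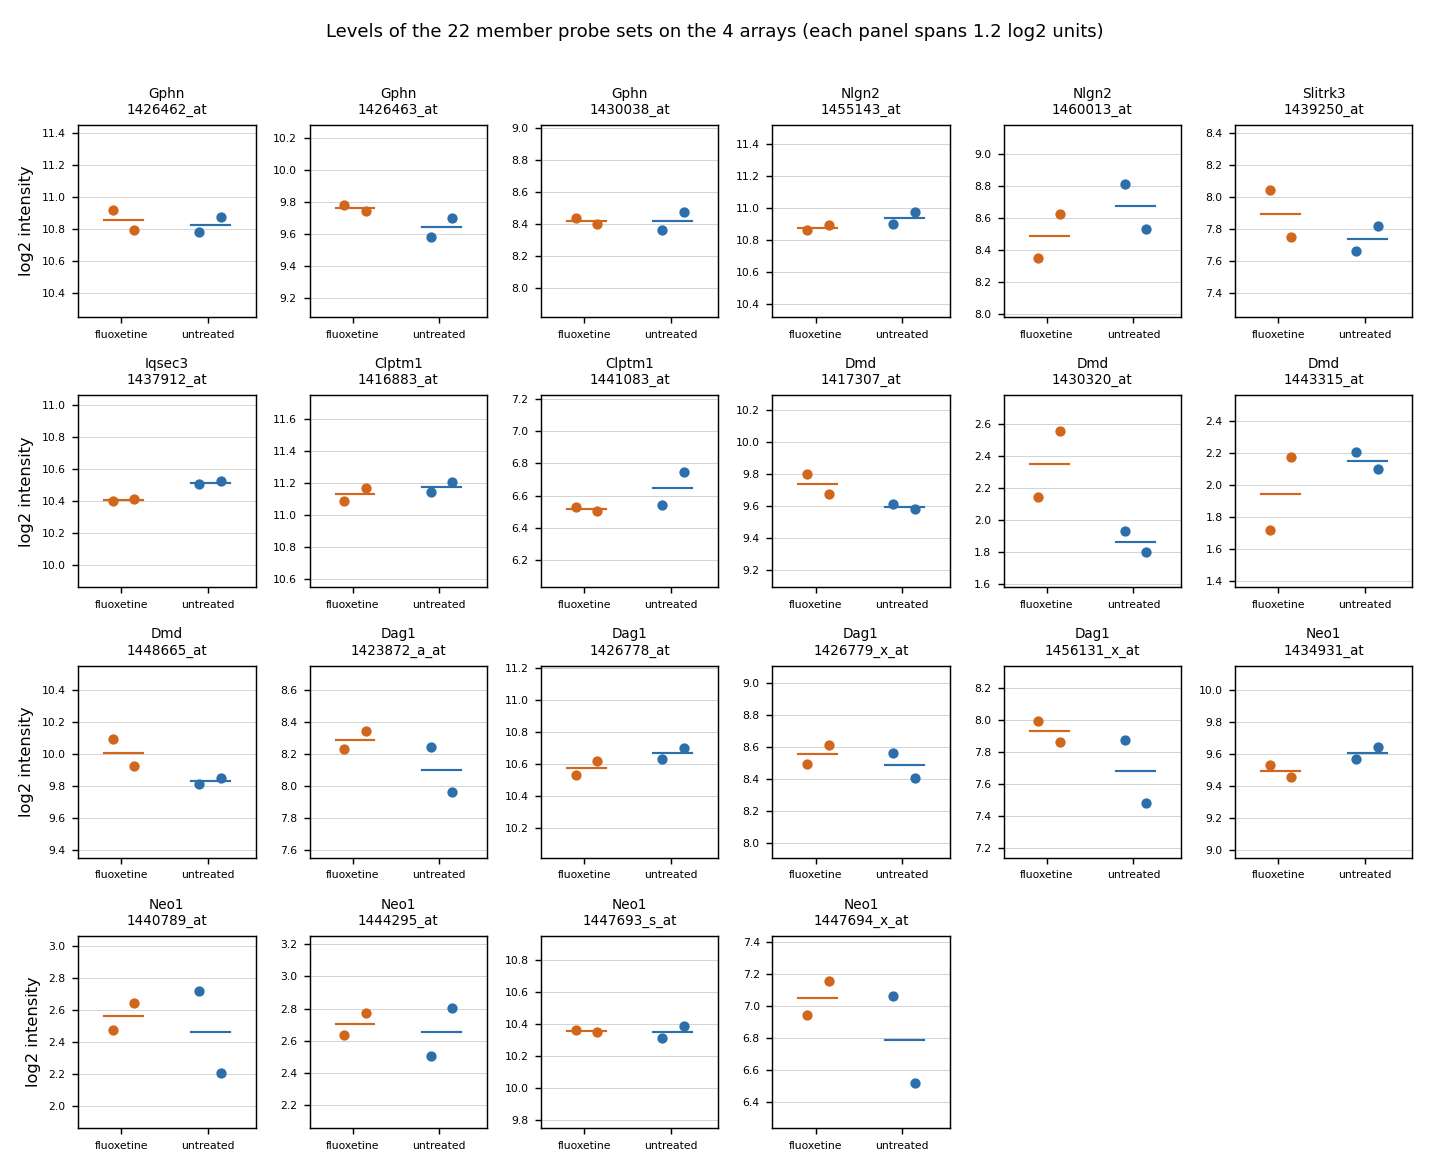
Log2 intensity of each of the 22 member probe sets on the 4 arrays; points are arrays, horizontal lines are group means, and every panel spans 1.2 log2 units so that shifts can be compared. The fluoxetine arrays lie above the untreated arrays without overlap in 4 panels (3 of them Dmd) and below them in 5.

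Dmd encodes dystrophin, the rod-like protein that ties the membrane complex to actin, and it was the member with the most probe sets above the untreated arrays. Because its transcripts start at several promoters, the starts listed for it are shown first. The RefSeq (GRCm38.p6) windows used here include 2 for Dmd, on the + strand of chromosome X. Each runs from 250 bases before to 50 bases after a transcript start. The listed gene itself begins earlier, at chrX:82814664, so these windows do not cover its first start. The window called upstream here, the earlier of the 2, is chrX:82948620-82948919. The internal window is chrX:85048045-85048344, and its start lies 2099425 bases further along the gene. Capitals mark the letters of the GC box GGGCGG, searched on both strands with overlaps allowed, and of the CArG box, the core that serum response factor binds in muscle promoters.
Dmd upstream start: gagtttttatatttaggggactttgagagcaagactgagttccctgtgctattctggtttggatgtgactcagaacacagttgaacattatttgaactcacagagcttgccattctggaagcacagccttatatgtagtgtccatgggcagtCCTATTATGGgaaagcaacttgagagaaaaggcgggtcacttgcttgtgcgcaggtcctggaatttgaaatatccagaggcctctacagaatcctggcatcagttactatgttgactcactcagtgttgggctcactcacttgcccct
Dmd internal start: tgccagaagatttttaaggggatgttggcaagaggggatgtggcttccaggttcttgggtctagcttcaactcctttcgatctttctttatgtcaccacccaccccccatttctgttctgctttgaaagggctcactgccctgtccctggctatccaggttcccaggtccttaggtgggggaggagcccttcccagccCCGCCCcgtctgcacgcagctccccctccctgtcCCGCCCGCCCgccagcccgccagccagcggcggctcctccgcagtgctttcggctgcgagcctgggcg
The upstream window was 45.7% G and C and held 1 CArG box and 0 GC boxes; the internal window was 62.7% G and C and held 3 GC boxes and 0 CArG boxes. Of all 32851 such windows, 35.7% held a GC box and 1.63% a CArG box, and the median G and C content was 52.7%. Short dystrophins made from internal promoters, chiefly Dp71, are a main form of the protein in brain, and long and short transcripts share their 3' end. The positions of the probes were not given in the sources used here, so the transcripts behind each Dmd signal cannot be told apart.

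The 2 bright Dmd probe sets both had higher readings on the fluoxetine arrays, and 1 of them passed the unadjusted threshold. Probe set 1448665_at read 10.09 and 9.93 with fluoxetine, against 9.81 and 9.85 in untreated mice. Probe set 1417307_at read 9.80 and 9.67 with fluoxetine, against 9.61 and 9.58 in untreated mice. In both the groups did not overlap, and fluoxetine replicate 1 was the highest of the 4 arrays. Both are annotated to the same RefSeq mRNA, so they are repeated readings of 1 transcript group and not independent. The difference was 0.18 (SE 0.07; limma, unadjusted p = 0.0411, adjusted p = 0.510) for 1448665_at, a 1.13-fold higher signal with a 95% interval of 1.01 to 1.27. For 1417307_at it was 0.14 (SE 0.07; limma, unadjusted p = 0.0711, adjusted p = 0.572). The call of 1448665_at ended without fluoxetine replicate 1, where the difference was 0.09 (limma, unadjusted p = 0.304), without either untreated array (0.16, unadjusted p = 0.135, and 0.20, unadjusted p = 0.0809) and without the intensity trend (unadjusted p = 0.115).

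The other 2 Dmd probe sets were dim and did not move together. Probe set 1430320_at, annotated to a RIKEN cDNA, read 2.14 and 2.56 with fluoxetine, against 1.93 and 1.80 in untreated mice. Probe set 1443315_at, annotated to an expressed sequence tag, read 1.72 and 2.17 with fluoxetine, against 2.20 and 2.10 in untreated mice. The first did not overlap between groups and the second did. The difference was 0.49 (SE 0.20; limma, unadjusted p = 0.0478, adjusted p = 0.523) for 1430320_at and −0.21 (SE 0.21) for 1443315_at. Both were among the dimmest of all probe sets (percentiles 4.95 and 4.77 of level), where a log2 difference depends most on how background was subtracted, which is not known here. The call of 1430320_at ended without fluoxetine replicate 2 (0.28, limma, unadjusted p = 0.276) and without either untreated array (0.55, unadjusted p = 0.0832, and 0.42, unadjusted p = 0.158). With the mean of its 4 probe sets as 1 value, Dmd differed by 0.15 (limma, unadjusted p = 0.208).

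Dystrophin binds dystroglycan, whose gene Dag1 encodes both the extracellular and the membrane-spanning chain. The difference of its brightest probe set was opposite in sign to those of its other probe sets. Probe set 1426778_at read 10.53 and 10.62 with fluoxetine, against 10.63 and 10.70 in untreated mice, so both fluoxetine arrays lay below both untreated arrays. Probe set 1423872_a_at read 8.23 and 8.34 with fluoxetine, against 8.24 and 7.97 in untreated mice. Probe set 1456131_x_at read 8.00 and 7.86 with fluoxetine, against 7.87 and 7.48 in untreated mice. In the last 2 the groups overlapped, and untreated replicate 2 was the lowest array. The remaining probe set, 1426779_x_at, read 8.50 and 8.61 with fluoxetine, against 8.57 and 8.41 in untreated mice, also with overlap. The differences were −0.09 (SE 0.06) for 1426778_at, 0.18 (SE 0.11) for 1423872_a_at, 0.25 (SE 0.14) for 1456131_x_at and 0.07 (SE 0.09) for 1426779_x_at. None had an unadjusted p below 0.05 in limma. Without untreated replicate 2 they were −0.06, 0.04, 0.05 and −0.01, in the same order. Without untreated replicate 1, 1423872_a_at passed at 0.32 (limma, unadjusted p = 0.0194) and 1456131_x_at at 0.45 (limma, unadjusted p = 0.00893). As 1 value per gene, Dag1 was −0.09 by its brightest probe set and 0.10 by the mean of its probe sets. The suffixes _x_at and _a_at mark probes shared with other transcripts or with several forms of the gene.

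Gephyrin, the product of Gphn, is the central scaffold of inhibitory synapses and also catalyses the last steps of molybdenum cofactor synthesis. None of its 3 probe sets passed an unadjusted p of 0.05 in limma. Probe set 1426462_at read 10.92 and 10.79 with fluoxetine, against 10.78 and 10.87 in untreated mice. Probe set 1426463_at read 9.78 and 9.74 with fluoxetine, against 9.58 and 9.70 in untreated mice. Probe set 1430038_at read 8.43 and 8.40 with fluoxetine, against 8.36 and 8.48 in untreated mice. In 1426463_at alone the fluoxetine pair lay above the untreated pair, by a difference of 0.12 (SE 0.07; limma, unadjusted p = 0.111). It was 0.18 without untreated replicate 2 (limma, unadjusted p = 0.0401) and 0.06 without untreated replicate 1. The difference was 0.03 (SE 0.06) for 1426462_at, or −0.01 after another quantile normalization, and −0.0041 (SE 0.08) for 1430038_at, or 0.03 with arrays centred on their medians. The 95% interval for 1426462_at ran from a 0.92-fold to a 1.13-fold signal and that for 1426463_at from 0.98-fold to 1.21-fold.

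Neuroligin 2, encoded by Nlgn2, is the neuroligin found mainly at inhibitory synapses, where it binds neurexins across the cleft and gephyrin inside. Both of its probe sets had lower means with fluoxetine. Probe set 1455143_at read 10.86 and 10.89 with fluoxetine, against 10.90 and 10.97 in untreated mice. Probe set 1460013_at read 8.35 and 8.62 with fluoxetine, against 8.81 and 8.53 in untreated mice. The groups did not overlap in the first, where the nearest arrays of the groups were 10.89 and 10.90, and overlapped in the second. The differences were −0.06 (SE 0.05; limma, unadjusted p = 0.295) and −0.18 (SE 0.12; limma, unadjusted p = 0.183). The 95% interval for 1455143_at ran from a 0.88-fold to a 1.05-fold signal. The gap between duplicates was 0.27 with fluoxetine and 0.28 in untreated mice for 1460013_at, both larger than its difference.

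Slitrk3 encodes a leucine-rich repeat adhesion molecule that induces inhibitory presynapses by binding the receptor phosphatase PTPδ. Its probe set 1439250_at read 8.04 and 7.75 with fluoxetine, against 7.66 and 7.82 in untreated mice. The groups overlapped, and fluoxetine replicate 1 was the highest array. The difference was 0.16 (SE 0.12; limma, unadjusted p = 0.237), and 0.01 without fluoxetine replicate 1.

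Iqsec3 encodes an exchange factor for the small GTPase Arf6 that binds gephyrin at inhibitory synapses, and it had the tightest duplicates of any member. Its probe set 1437912_at read 10.40 and 10.41 with fluoxetine, against 10.50 and 10.52 in untreated mice. Both fluoxetine arrays lay below both untreated arrays, and the gaps between duplicates, 0.01 with fluoxetine and 0.02 in untreated mice, were smaller than the difference between groups. The difference was −0.11 (SE 0.05; limma, unadjusted p = 0.0744, adjusted p = 0.577), a 0.93-fold signal with a 95% interval of 0.85 to 1.01. With arrays left out in turn the difference ran from −0.12 to −0.10. After another quantile normalization it was −0.15 (unadjusted p = 0.0182), and with arrays centred on their medians −0.07. Limma draws the variance of this probe set toward that of others of like intensity, so its SE is wider than the duplicates alone would give.

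Clptm1 encodes a membrane protein of the endoplasmic reticulum that retains GABA-A receptors and so limits their delivery to the surface. Probe set 1416883_at read 11.09 and 11.17 with fluoxetine, against 11.14 and 11.21 in untreated mice. Probe set 1441083_at, annotated to an expressed sequence tag, read 6.53 and 6.51 with fluoxetine, against 6.54 and 6.75 in untreated mice. The groups overlapped in the first; in the second they did not, although untreated replicate 1 lay only just above the fluoxetine arrays. The differences were −0.05 (SE 0.05) and −0.13 (SE 0.12), with unadjusted p of 0.426 and 0.322 in limma. The second was −0.03 without untreated replicate 2.

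Neo1 encodes neogenin, a receptor for netrins and repulsive guidance molecules. The brightest probe set, 1447693_s_at, read 10.37 and 10.35 with fluoxetine, against 10.31 and 10.39 in untreated mice. Probe set 1434931_at read 9.53 and 9.46 with fluoxetine, against 9.57 and 9.65 in untreated mice. The fluoxetine arrays lay between the untreated arrays in the first and below them in the second. The differences were 0.01 (SE 0.06; −0.03 after another quantile normalization) and −0.11 (SE 0.07; limma, unadjusted p = 0.126, and −0.15 with an unadjusted p = 0.0257 after another quantile normalization). Probe set 1447694_x_at read 6.94 and 7.16 with fluoxetine, against 7.06 and 6.52 in untreated mice. Its difference of 0.26 (SE 0.18) rested on untreated replicate 2, the lowest array, and was −0.01 without it; without untreated replicate 1 it was 0.53 (limma, unadjusted p = 0.0132). The other 2 probe sets, 1440789_at and 1444295_at, were dim, with readings of 2.47 to 2.77 with fluoxetine and 2.21 to 2.80 in untreated mice, and differed by 0.10 (SE 0.22) and 0.05 (SE 0.19) with overlapping groups.

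**Figure D2:**
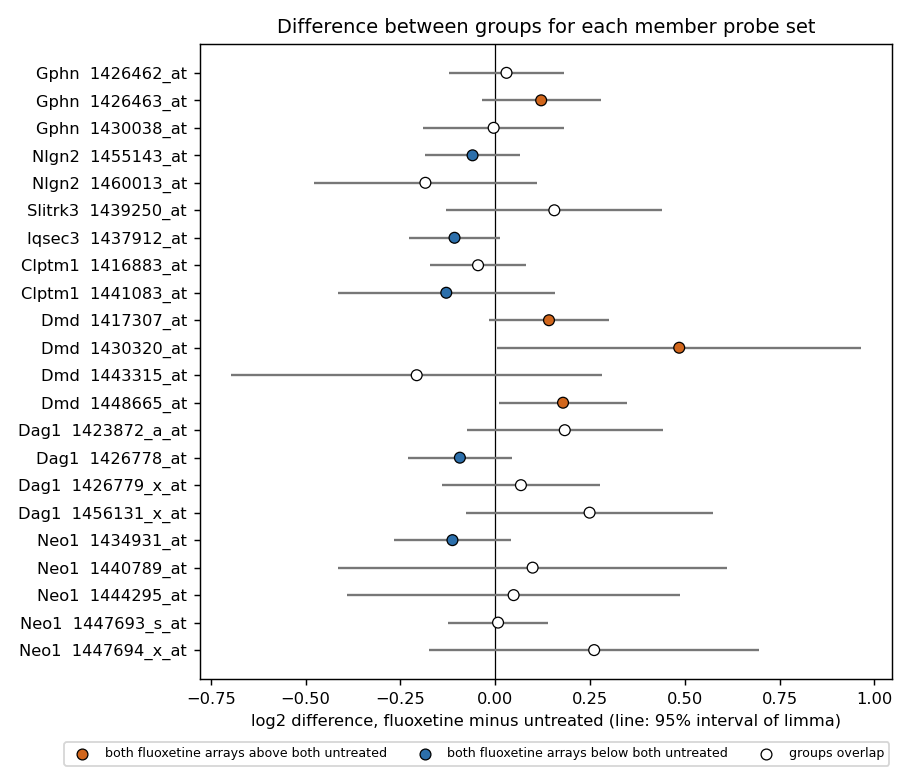
Log2 difference, fluoxetine minus untreated, of each member probe set (points), with the 95% interval of limma (lines); fill shows whether the groups overlapped. Only the intervals of Dmd 1448665_at and Dmd 1430320_at leave out 0, and Gphn, Dmd, Dag1 and Neo1 each have probe sets on both sides of 0.

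The probe sets of a gene thus often differed in sign, though several of these differences were smaller than their SEs. Contrasts between probe sets of a gene were not tested. Of the 6 genes with more than 1 probe set, Nlgn2 and Clptm1 had differences of 1 sign in all their probe sets, and Gphn, Dmd, Dag1 and Neo1 had both signs. Dim probe sets spread more: the 4 member probe sets below the 10th percentile of level had SEs of 0.19 to 0.22, whereas the 5 brightest had SEs of 0.05 to 0.06.

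**Figure D3:**
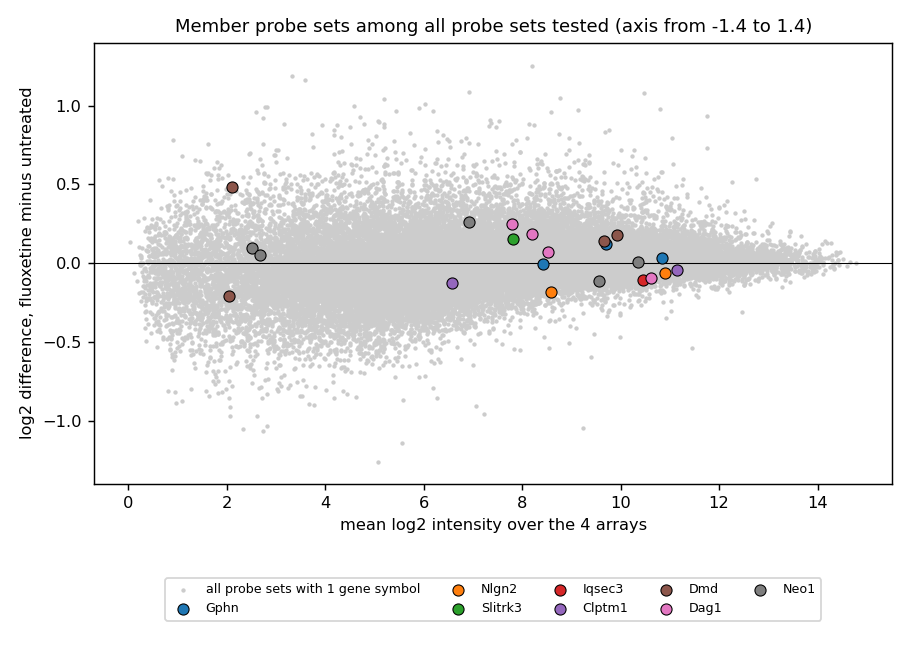
Mean log2 intensity over the 4 arrays (horizontal) against the log2 difference, fluoxetine minus untreated (vertical), for member probe sets (coloured by gene) and all probe sets with a single symbol (grey; 3 lie outside the drawn range). The members lie within the grey cloud at their own level, and the dim ones, at the left, spread most.

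Genes that work with the members were read from 6 lists. In the first, other scaffold and adhesion genes of the inhibitory postsynapse, 1 of 24 probe sets was higher, 0 were lower and 23 did not pass an unadjusted p of 0.05 in limma; the median difference was −0.04, against −0.01 over all probe sets, and 0 passed after adjustment. The one higher was 1424482_at of Arhgef7, which encodes a Rac exchange factor, at 10.08 and 10.09 with fluoxetine and 9.84 and 9.92 in untreated mice (difference 0.21, SE 0.06). The other probe set of Arhgef7 differed by −0.05. Insyn1, which encodes an inhibitory synaptic protein of the dystrophin complex, read 6.55 and 6.53 with fluoxetine, against 6.86 and 6.71 in untreated mice (difference −0.25, SE 0.11). Mdga2, a neuroligin-binding adhesion gene, differed by 0.22 (SE 0.11) at 1442206_at and by 0.13 (SE 0.09) at its other probe set. Srgap2, a regulator of synapse maturation, differed by −0.16 (SE 0.09) at 1429884_at, but by 0.32 (SE 0.18), 0.16 (SE 0.11) and 0.01 (SE 0.06, the brightest) at its other 3 probe sets. Insyn1, Mdga2 and Srgap2 did not pass. Without fluoxetine replicate 2 the list had 0 higher and 1 lower, and without untreated replicate 2 it had 2 and 2.

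The dystrophin-associated proteins had 4 of 33 probe sets higher at the same threshold (12.1%, against 6.4% of all probe sets). A further 2 were lower and 27 did not pass. The median difference was 0.05, and 0 passed after adjustment. The list is not independent of the Dmd values above, since it was chosen with them known. Dtna encodes alpha-dystrobrevin, a cytoplasmic partner of dystrophin, and 3 of its 7 probe sets were higher. Probe set 1426066_a_at read 8.67 and 8.46 with fluoxetine, against 8.17 and 8.30 in untreated mice (difference 0.33, SE 0.10; limma, unadjusted p = 0.0121, adjusted p = 0.416). Probe sets 1419223_a_at and 1456069_at differed by 0.32 (SE 0.11) and 0.28 (SE 0.10), and the other 4 by −0.10 to 0.09. The brightest probe set of Dtna, 1425292_at, was among these 4 and differed by 0.09 (SE 0.07). Sntb2, which encodes beta-2-syntrophin, read 6.83 and 6.54 with fluoxetine, against 6.30 and 6.33 in untreated mice at 1420372_at (difference 0.37, SE 0.13). In each of its 4 probe sets both fluoxetine arrays lay above both untreated arrays, as in 19.9% of all probe sets. Only 1420372_at of Sntb2 passed the threshold, and 1436986_at and 1449840_at were dim (percentiles 15.9 and 25.4 of level). The lower probe sets were 1 of Sntg1 (difference −0.47) and 1 of Sgcd (−0.49), both dim, with readings below 4 on all arrays. Both were named after their values were seen. The brighter probe set of Sntg1, 1432287_a_at, differed by 0.12 (SE 0.11). Without fluoxetine replicate 1 the list had 0 higher and 0 lower, and its median was 0.02. Without untreated replicate 1 it had 3 higher and 4 lower, with a median of −0.01, and without the intensity trend also 3 and 4. With the brightest probe set per gene it had 0 higher and 1 lower of 11. The calls of Dtna and Sntb2 named here were all lost without fluoxetine replicate 1 and all lost without untreated replicate 1.

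Several astrocyte markers were higher on the same arrays. Of 28 probe sets of 8 markers, 11 (39.3%) passed an unadjusted p of 0.05 in limma as higher, against 6.4% of all probe sets. As lower 0 passed, and the median difference was 0.07. The summed intensity of these markers was 15.77 and 15.78 with fluoxetine and 15.66 and 15.68 in untreated mice on the log2 scale. Aqp4, the water channel of astrocyte endfeet, read 8.46 and 8.45 with fluoxetine at 1425382_a_at, against 7.94 and 7.78 in untreated mice (difference 0.59, SE 0.09). Its other probe sets differed by 0.37 (SE 0.09) and, at the brightest, 0.07 (SE 0.05). The probe set with the next widest range, of the glutamate transporter gene Slc1a3, was dim and differed by 0.36 (SE 0.22). The other 5 of Slc1a3 differed by −0.21 to 0.25. The 3 probe sets of Gfap, the astrocyte filament gene, differed by −0.15 to −0.02. Of the further listed markers, Aldh1l1 differed by 0.02 and 0.0030, and S100b by −0.02 and 0.03. Gjb6 differed by 0.30 (SE 0.06), Gja1 by −0.00055 to 0.38 and Slc1a2 by −0.34 to 0.22 over their probe sets. The 11 calls fell in Aqp4, Slc1a3, Slc1a2, Gja1 and Gjb6. Gfap, Aldh1l1, S100b, Gjb6, Gja1 and Slc1a2 were named after their values were seen. The count of 11 was 6 without either fluoxetine array and without untreated replicate 1. Endothelial and mural markers had 4 of 17 probe sets higher and 1 lower, with summed intensities of 13.38 on both fluoxetine arrays, against 13.19 and 13.36 in untreated mice. Rgs5, a pericyte gene, differed by 0.62 (SE 0.09), 0.48 (SE 0.09) and 0.21 (SE 0.08) at 3 probe sets but by 0.07 (SE 0.07) at its brightest. Acta2, the smooth muscle actin gene, had the widest range of the list at 1456658_at, with a difference of −0.17 (SE 0.31); its other probe sets differed by −0.50 (SE 0.17, the lower call of the list) and 0.04 (SE 0.13, the brightest). Without fluoxetine replicate 1 or untreated replicate 1 the 4 became 2. Most muscle marker probe sets were dim, with medians of 4.18 and 4.30 with fluoxetine and 4.42 and 4.49 in untreated mice. Acta1 was brighter (percentile 77.5 of level) and differed by −0.03 (SE 0.08). It was named after its values were seen. Muscle markers had 2 of 18 probe sets higher and 2 lower. Projection neuron markers had 2 of 15 higher and 0 lower, interneuron markers 2 of 14 higher and 1 lower, and striatal markers 0 of 16 higher and 1 lower. The interneuron probe sets with the widest range were of Pvalb and Gad2. Pvalb read 11.17 and 10.25 with fluoxetine, against 10.25 and 10.36 in untreated mice. Gad2 differed by 0.49 (SE 0.13) at 1421978_at and by −0.0044 (SE 0.10) at its brighter probe set. Slc32a1, named after its values were seen, held the lower call (−0.32, SE 0.10). Oligodendrocyte markers had 2 of 24 higher and 3 lower, and microglial markers 1 of 9 higher and 1 lower. An array gives every probe set a value, so no marker stood at 0. In bulk tissue, fewer or more cells of a type and a change of RNA per cell cannot be told apart, and the part of astrocytes and vessels in the Dmd, Dtna and Sntb2 values was not tested.

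Genes for the sugar chains of dystroglycan had 1 of 15 probe sets higher and 0 lower, with a median of −0.03 (0.0046 with arrays centred on their medians). The higher one, of B3galnt2, differed by 0.34 (SE 0.14), but its other 3 probe sets differed by −0.30 (SE 0.16), −0.17 (SE 0.20) and 0.01 (SE 0.10, the brightest). The call was lost without fluoxetine replicate 1, where the list had 0 higher and 0 lower, and likewise without either untreated array; without the intensity trend the list had 0 higher and 1 lower. Pomk, the kinase of the dystroglycan sugar chain, differed by 0.12 (SE 0.07) at 1424004_x_at, by −0.10 (SE 0.07) at 1424003_at and by −0.01 (SE 0.18) at a further, dim probe set. Pomt2, which starts the chain, differed by 0.13 (SE 0.09) at 1451396_at and by −0.10 (SE 0.10) at 1433644_at. None of these passed.

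Partners that carry gephyrin and GABA-A receptors through the cell formed the longest list. At the same threshold 9 of 60 probe sets (15.0%) were higher, against 6.4% of all probe sets, 0 were lower and 51 did not pass. The median difference was 0.04, and 0 passed after adjustment. The list was bright, with 49 probe sets at or above the median level. A fit of only such probe sets had 9 of these 49 higher, and 1746 of all 17473 higher with 301 lower. In that fit 11.7% of all probe sets passed in either direction. Kif5b, a kinesin motor heavy chain, read 11.12 and 10.84 with fluoxetine at 1418430_at, against 10.61 and 10.40 in untreated mice (difference 0.47, SE 0.10; limma, unadjusted p = 0.00274, adjusted p = 0.353). At 1418431_at it read 9.82 and 9.39 with fluoxetine, against 9.10 and 8.80 in untreated mice (difference 0.66, SE 0.15). Of its 6 probe sets 4 were higher. The neuronal kinesin Kif5c differed by 0.35 (SE 0.10) at 1422945_a_at but by 0.04 at its brightest probe set. Nsf, the ATPase that takes apart SNARE complexes, differed by 0.33 (SE 0.09) at 1422455_s_at but by 0.04 at its brightest probe set. The same arrays had the poly-A controls 0.24 higher. The count of 9 was 3 without fluoxetine replicate 1, 6 without untreated replicate 2 and 5 without the intensity trend. With the brightest probe set per gene, 2 of 21 genes were higher and 0 lower. With the mean per gene, 1 was higher and 1 lower.

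**Figure D4:**
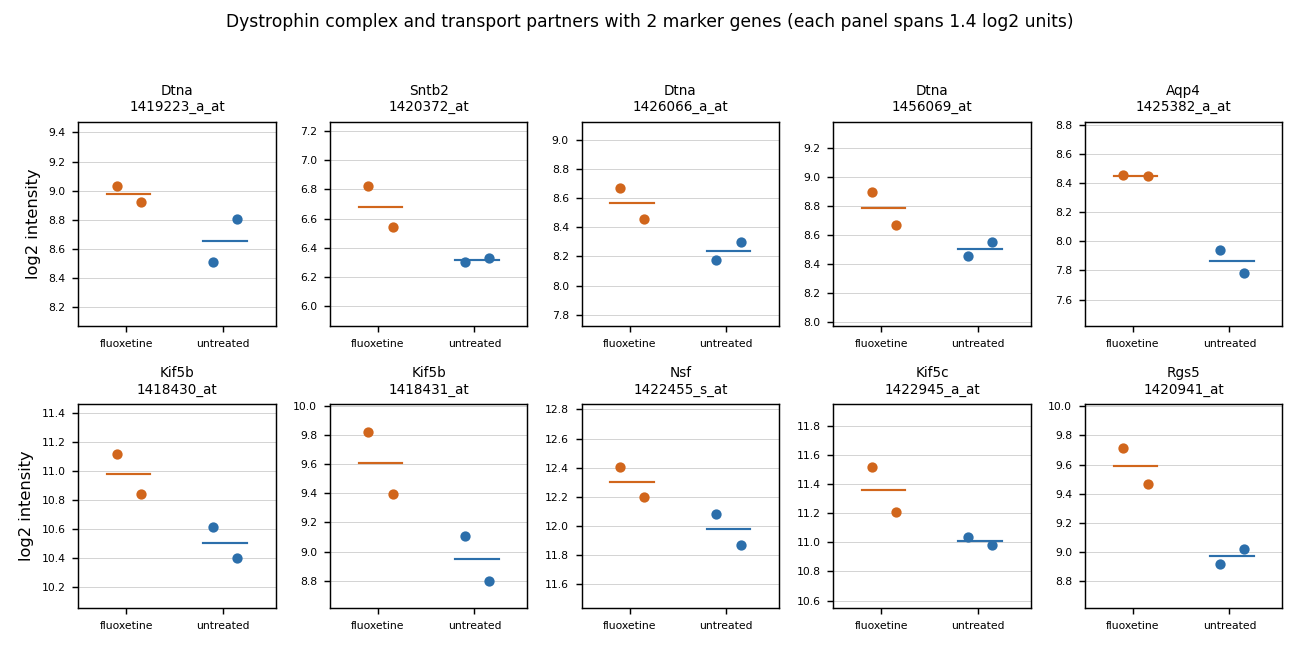
Log2 intensity on the 4 arrays for the 4 probe sets with the smallest p among dystrophin-associated genes (Dtna, Sntb2) and among transport partners (Kif5b, Nsf, Kif5c), with Aqp4 and Rgs5 as astrocyte and pericyte markers; points are arrays, lines are group means, and each panel spans 1.4 log2 units. Both fluoxetine arrays lie above both untreated arrays in all 10 panels. The partner panels were chosen for their small p, and Aqp4 and Rgs5 were picked by gene among the probe sets of widest range. Acta2 1456658_at, which had the widest range of the endothelial and mural list, overlapped between groups (difference −0.17) and is not drawn. Slc1a3 1440491_at (difference 0.36) is not drawn either.

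Across the cleft, the presynaptic and extracellular partners of the adhesion members had 0 of 40 probe sets higher at that threshold, 3 lower and 37 that did not pass, with a median of −0.03 (0.01 with arrays centred on their medians). Nrxn2, which encodes a neurexin, the presynaptic partner of neuroligins, read 11.34 and 11.40 with fluoxetine at 1435907_at, against 11.49 and 11.54 in untreated mice (difference −0.14, SE 0.05; limma, unadjusted p = 0.0226, adjusted p = 0.448). Its other probe set differed by −0.01. The other lower calls were at dim probe sets of genes for neogenin ligands, Rgmb by −0.49 (SE 0.20) and Ntn1 by −0.34 (SE 0.15). Among the 5 further probe sets of Rgmb the differences ran from −0.13 to 0.17, and the other one of Ntn1 differed by −0.07. Of the same families, Rgma differed by −0.07 (SE 0.11) and Ntn4 by 0.05 (SE 0.11) and 0.01 (SE 0.17). Rgma and Ntn4 were named after their values were seen. Ptprs, a receptor phosphatase of presynaptic terminals, differed by 0.22 (SE 0.11) at 1427688_a_at and by −0.19 (SE 0.12), 0.11 (SE 0.13) and −0.04 (SE 0.04, the brightest) at its other 3 probe sets, none of which passed. The 3 lower calls became 0 without fluoxetine replicate 1, 2 without fluoxetine replicate 2 and 1 (beside 1 higher) without untreated replicate 2. Without untreated replicate 1 there were 5 lower and 1 higher, and without the intensity trend or with arrays centred on their medians 1 lower.

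The molybdenum cofactor pathway, which gephyrin completes, had 0 of 13 probe sets past an unadjusted p of 0.05, with a median of 0.0019. Mocs2, which encodes both subunits of molybdopterin synthase, read 11.32 and 11.27 with fluoxetine, against 11.18 and 11.21 in untreated mice (difference 0.10, SE 0.05), and its other probe set differed by 0.02 (SE 0.15). Mocs1, which acts at the first step, differed by −0.30 (SE 0.16) at 1425004_s_at and by 0.16 (SE 0.15) at its other probe set, and the 2 probe sets of Mocs3, which activates molybdopterin synthase, by −0.28 (SE 0.15) and −0.19 (SE 0.13).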

How the data were processed

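RNA from prelimbic cortex of fluoxetine-exposed and untreated mice was measured on 4 arrays, 2 for each group. The authors deposited a log2 intensity for each probe set. RMA, affy and limma are named per the submitters' processing notes; versions, genome build and scan batches are not given in the sources used here. Their values ran from −0.08 to 15.14, from which the log base was inferred; values this low are unusual for plain RMA, and the background correction used is not known. Of 45101 probe sets, 64 were array controls, 34945 had 1 symbol in the platform annotation and were tested, 932 had several symbols and 9160 had none listed. Of those tested, 34741 matched a mouse gene by Entrez number, and 0 symbols needed updating.

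Fluoxetine minus untreated was tested two-sided in R 4.3.3 and limma 3.58.1, where lmFit was followed by eBayes allowing an intensity trend, and p-values were adjusted by Benjamini-Hochberg over all probe sets tested, with a threshold of 0.05, no filter on low values and no pairing. The fit had 2 residual and 5.11 prior degrees of freedom, and most of a variance was thus borrowed from probe sets of like level. The code was tested on simulated data. The number of arrays limits the precision.

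The members and lists were chosen with earlier results of these data known. The text names every member probe set and up to 4 probe sets with the smallest p of each partner list. It names up to 2 with the widest range of the striatal, interneuron, astrocyte, and endothelial and mural lists. Other probe sets of most named genes stand beside them. Apart from Acta1, the remaining marker lists are given as counts or medians only. No gene was named for a like pattern, since 4 arrays are too few. Listed genes without a named probe set are not analysed here. Alternatives were no trend, another quantile normalization, median centring, brighter probe sets only, 1 value per gene and each array left out.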

Additional observations from a re-analysis of the deposited data

How the results depend on the processing

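No paired analysis was possible because the labels give the arrays no number shared between groups. Over all probe sets, 3301 had an unadjusted p below 0.05 in limma (67.8% of them higher; 79.6% with arrays centred on their medians, 85.3% among probe sets at or above the median level, 59.4% after another quantile normalization, 53.5% with the mean and 49.6% with the brightest probe set per gene, 50.3% without the intensity trend and 52.4% without untreated replicate 1). The count was 2047 among probe sets at or above the median level, 1266 with the brightest probe set per gene and 1558 with the mean per gene, where fewer values were tested, and 1044 to 3466 with an array left out, lowest without fluoxetine replicate 1. The 1 probe set past adjustment became 0 without the intensity trend and with either value per gene, and 0 to 1 with an array left out. The 2 member calls became 1 without the trend, 5 after another quantile normalization (2 higher, 3 lower: Iqsec3, Dag1 1426778_at and Neo1 1434931_at), 1 among brighter probe sets, 1 with the brightest and 0 with the mean per gene, and 1 to 3 with an array left out. The 20 partner calls became 5 with the brightest and 6 with the mean per gene, and 4 to 25 with an array left out. Signs turned for 8 member probe sets: Gphn 1426462_at (−0.0069 after another quantile normalization; −0.034 to 0.094 with an array left out), Gphn 1430038_at (0.032 with centred arrays; −0.060 to 0.052), Neo1 1447693_s_at (−0.027 after another quantile normalization; −0.030 to 0.045), Dmd 1443315_at (−0.43 to 0.020), Dag1 1426779_x_at (−0.011 to 0.15), Neo1 1440789_at (−0.15 to 0.35), Neo1 1444295_at (−0.10 to 0.20) and Neo1 1447694_x_at (−0.010 to 0.53). Dag1 as 1 value turned to 0.10 with the mean per gene. Other than the construction of each alternative, the cause was not tested. Dim probe sets, at readings of 1.7 to 2.8 here, limit what can be read of Dmd and Neo1.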
